A study of Mus musculus with 15 samples.

Results

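The synaptic vesicle and release machinery genes described here are 41 named mouse genes, all of which were found by symbol among the 55401 genes counted in hippocampal RNA, and all 41 passed the filter on low counts that left 19536 genes to test. They are a list of names set by place in the presynaptic terminal, with no threshold on a measured value, although it was drawn up with earlier results of these data known. They comprise 4 genes of the SNARE core (Snap25, Stx1a, Vamp1, Vamp2), 7 SNARE regulators, chaperones and disassembly factors (Stxbp5, Cplx1, Cplx2, Napb, Nsf, Dnajc5, Sncb), 5 synaptotagmins (Syt1, Syt2, Syt4, Syt7, Syt11), 10 vesicle membrane proteins and synapsins (Syp, Syn1, Syn2, Syn3, Sv2a, Sv2b, Sv2c, Syngr1, Syngr3, Synpr), 11 genes of the active zone, priming and Rab3 (Unc13a, Unc13b, Rims1, Rims2, Bsn, Pclo, Erc2, Ppfia3, Rab3a, Rab3b, Rph3a) and 4 genes of vesicle endocytosis (Synj1, Dnm1, Amph, Sh3gl2). RNA came from the hippocampus of 15 female mice, whose age the study's methods give as 18 to 20 months. Its discussion of spine density gives a higher approximate age, and the age at tissue collection is not stated for the RNA. Tg2576 mice carry a transgene for human amyloid precursor protein (APP) with the Swedish mutation under the prion promoter, and the WT mice were their littermates without it. Mice of each genotype received either docosahexaenoic acid (DHA, an omega-3 fatty acid) at 450 mg/kg by daily gavage or vehicle for 5 weeks, so that 4 mice entered each of the WT vehicle, WT DHA and Tg2576 vehicle groups and 3 mice the Tg2576 DHA group.

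A nerve terminal stores transmitter in vesicles, docks them at the active zone and releases their content when calcium enters. Fusion is driven by the SNARE proteins on the vesicle (VAMP) and on the plasma membrane (syntaxin and SNAP-25). Complexins and synaptotagmins hold and trigger the fusion, Munc13 and RIM proteins prime the vesicles, synapsins keep the reserve pool, and dynamin, amphiphysin, endophilin and synaptojanin bring membrane back for reuse. Loss of presynaptic proteins is a known feature of Alzheimer's disease, which Tg2576 mice model through amyloid deposition.

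Libraries held between 17372864 and 46596489 counts, and the median library held 25645977. The transcript that carries the transgene served as the check of the genotype labels. App, whose mouse gene shares reads with the human transgene, stood between 1572 and 1787 CPM (counts scaled to a common library size by the TMM method) in the 8 WT mice and between 2076 and 2787 CPM in the 7 Tg2576 mice, so the genotypes did not overlap. Markers of neurons that are not presynaptic were present throughout, with the lowest of their 15 genes at a minimum of 38.5 CPM in any mouse. Choroid plexus markers, which belong to another tissue that can adhere to a dissected hippocampus, summed to between 62.1 and 5868 CPM in the mice of the other groups and to between 3128 and 5179 CPM in the 3 Tg2576 DHA mice.

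The members were well covered. Together they held 2.10% of all counts, and even the lowest single value was 102 counts, in the synapsin Syn3. To set genes side by side their levels were divided by exon length (RPKM, here the CPM per kilobase of exon in the annotation). On this scale Cplx2, a complexin, was highest with 355 ± 33 RPKM (SD, n = 15), followed by the vesicle GTPase Rab3a with 306 ± 32.3 RPKM, the endocytic GTPase Dnm1 with 299.6 ± 26 RPKM, Cplx1 with 292 ± 23.1 RPKM, Snap25 with 291 ± 16.1 RPKM and the vesicle SNARE Vamp2 with 282 ± 29 RPKM. Neighbours among these 6 genes differed by less than their spread between mice, apart from the step from Cplx2 to Rab3a, which was larger than the SD of either gene. The lowest levels per length belonged to Sv2c with 4.34 ± 0.933 RPKM, Unc13b with 3.67 ± 0.421 RPKM and Syn3 with 0.719 ± 0.216 RPKM.

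**Figure D1:**
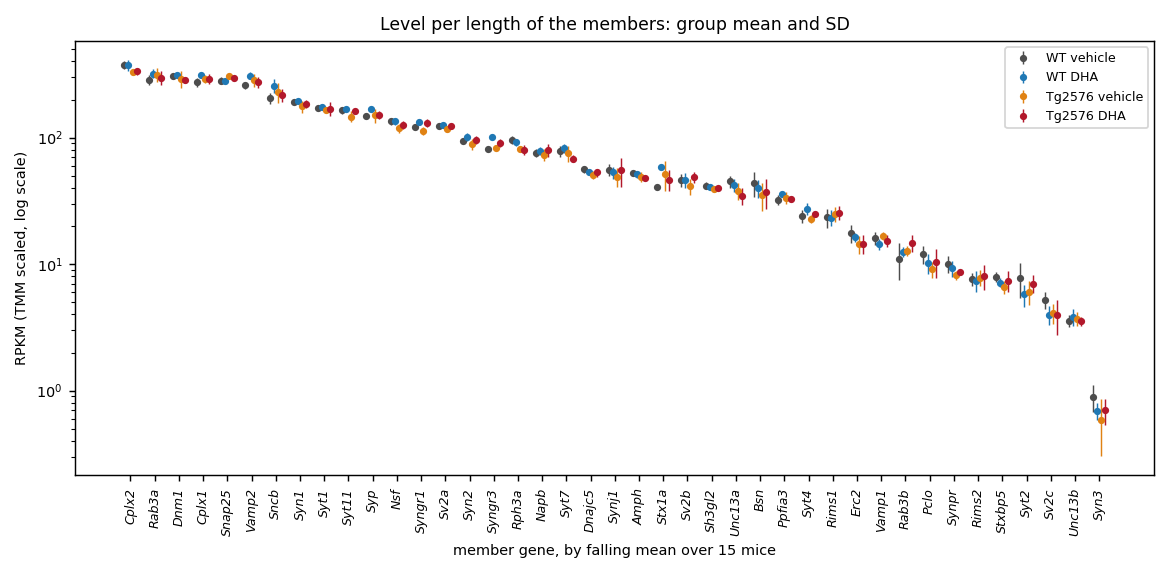
Level per length of the 41 members (y axis, RPKM, log scale), ordered by their mean over 15 mice (x axis). Points are means of the 4 groups and bars their SD (n = 4, or n = 3 for Tg2576 DHA), and the order runs from Cplx2 at 355 RPKM to Syn3 at 0.719 RPKM.

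Within each family of paralogs the hippocampus favoured the same member in every mouse, with few exceptions. Vamp2 exceeded Vamp1, the form typical of spinal cord and fast-firing neurons, by 12.7-fold to 26.9-fold in RPKM across the 15 mice (median 18). Syt1, the calcium sensor of fast release in the forebrain, exceeded Syt2, its counterpart in fast inhibitory terminals, by 14.7-fold to 40-fold. Unc13a exceeded Unc13b by 8.74-fold to 13.6-fold, and Rab3a exceeded Rab3b by 16.4-fold to 36.1-fold. Sv2a was above Sv2b (2.36-fold to 3.45-fold) and above Sv2c (20.3-fold to 43.2-fold) in 15 of 15 mice. The exceptions were Cplx2 over Cplx1, which held in 14 of 15 mice with a median ratio of 1.16, and Syt1 over Syt11, which held in 12 of 15 mice with a median ratio of 1.04. Exon length was taken from the counting annotation, which joins all isoforms, so levels of genes with long unused isoforms are understated on this scale.

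Levels within a group were tight. The SD of log2 CPM within groups had a median of 0.14 over the 41 members, against 0.25 over all genes tested, whose median level of 12.2 CPM was far below the 406 CPM of the members. Sv2a, the binding partner of levetiracetam, varied least (0.058), followed by Syngr3 (0.063) and Snap25 (0.065), while Syn3 (0.43), Syt2 (0.33) and Bsn (0.31) varied most. Sv2a spanned 1.2-fold between its lowest and highest of 15 mice, and Syn3 spanned 3.18-fold.

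**Figure D2:**
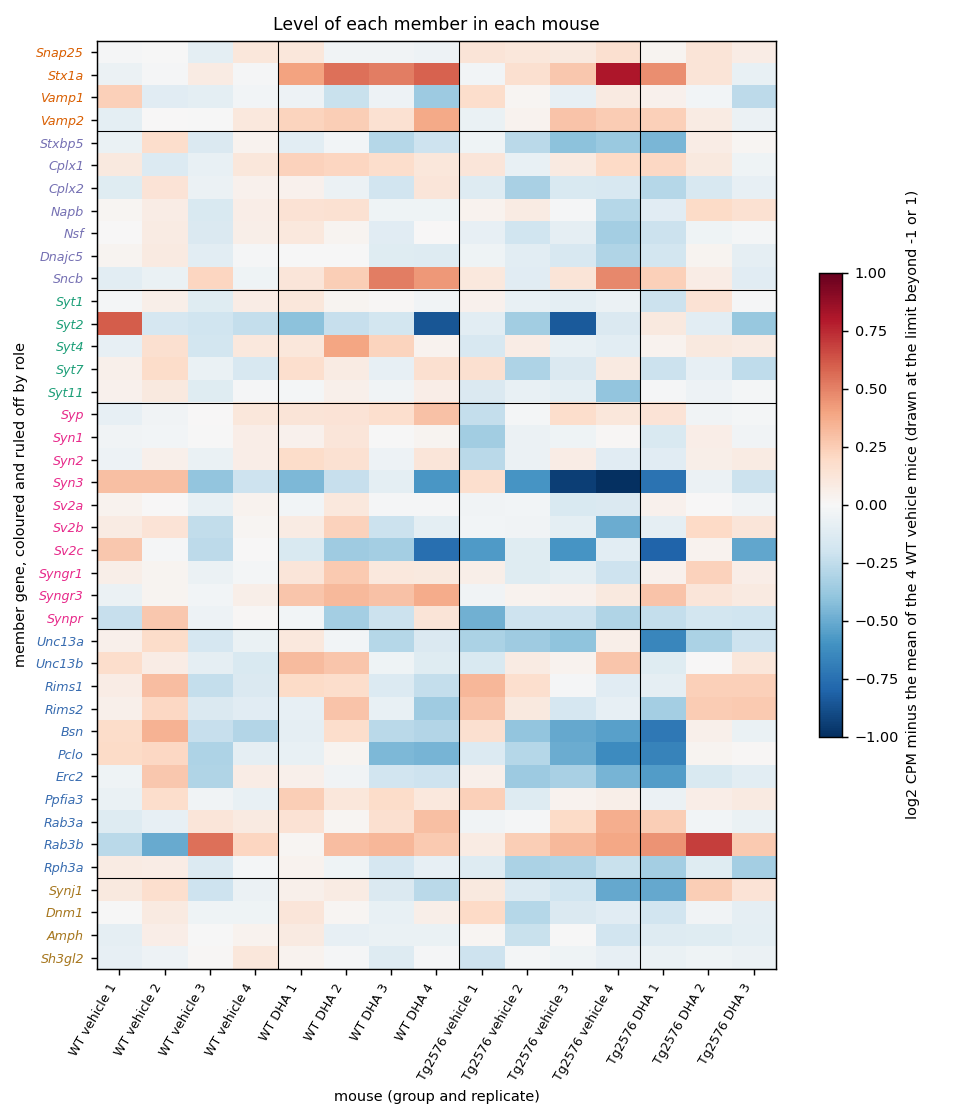
Each row is a member and each column a mouse. Colour gives log2 CPM minus the mean of the 4 WT vehicle mice, from -1 (blue) to 1 (red). The row of Stx1a is red in the 4 WT DHA mice, which lie between 144 and 164 CPM, in Tg2576 vehicle mouse 4 at 191 CPM and in Tg2576 DHA mouse 1 at 150.4 CPM, whereas most other rows stay pale.

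Differences were tested in 1 edgeR model over all 19536 genes, and a gene counts as called where its two-sided p before adjustment was under 0.01. Between Tg2576 and WT mice under vehicle 1 of 41 members was called, against 3.09% of all genes tested, and it was lower, a direction called in 1.93% of all genes. Between the genotypes under DHA none of the 41 was called, against 1.75% of all genes tested. DHA against vehicle in WT mice gave 2 called members of 41, against 1.38% of all genes tested, and both were higher, a direction called in 0.783% of all genes. DHA against vehicle in Tg2576 mice gave none of 41, against 0.353% of all genes. The interaction, which asks whether the DHA effect differed between the genotypes, called 1 of 41 members against 0.829% of all genes. In the order of these 5 comparisons, 9, 3, 7, 1 and 4 of 41 members had an unadjusted p under 0.05 in edgeR. Among all 19536 genes tested the same counts were 2100, 1341, 1157, 618 and 1001. Without Tg2576 vehicle mouse 1, the library with the fewest counts, the genotype comparison under vehicle called 5 members, namely Stx1a higher and Stxbp5, Syn3, Erc2 and Rph3a lower. Their edgeR adjusted p in that fit ranged from 0.12 (Syn3) to 0.18 (Stxbp5). The share of all genes called in that fit is not given here, so the 5 are not read as particular to the members. No member had a Benjamini-Hochberg adjusted p under 0.05 in edgeR in any of the 5 comparisons, against 0.0154% of all genes for genotype under vehicle, 0.00512% for genotype under DHA and 0% in the other comparisons. The comparisons share mice, since each group enters 2 of the comparisons between groups and all groups enter the interaction, so their values are set side by side and not counted as separate evidence.

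The middle of the distribution moved little. The median log2 fold change of the members was -0.087 for genotype under vehicle, with 27 of 41 below 0, and -0.085 for genotype under DHA, with 29 of 41 below 0, beside medians of 0.0003 and -0.0035 over all genes tested. The first was -0.05 without Tg2576 vehicle mouse 4 and -0.054 without TMM factors, and the second was -0.028 without Tg2576 DHA mouse 1, -0.035 with an offset for G and C content and -0.049 without TMM factors. It was 0.0071 for DHA in WT mice and 0.036 for DHA in Tg2576 mice, beside -0.013 and -0.0039 over all genes. In bulk tissue, fewer cells of a type and less RNA per cell cannot be told apart.

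These data set limits on how far most members could have moved. The 95% interval of the log2 fold change lay wholly within -0.5 to 0.5, a 1.41-fold change in either direction, for 30 of 41 members in the genotype comparison under vehicle, 33 under DHA, 33 for DHA in WT mice and 34 for DHA in Tg2576 mice. The median of the interval's half-length was 0.2, 0.22, 0.2 and 0.22 on the log2 scale in the same order. Sv2a had the narrowest intervals, with a log2 fold change of -0.089 (95% interval -0.23 to 0.053) between genotypes under vehicle and 0.013 (-0.13 to 0.16) for DHA in WT mice. Syn3 had the widest, with -0.61 (-1.17 to -0.049) between genotypes under vehicle, so that for this gene even a fall below 0.5 of the WT level lay inside the interval.

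**Figure D3:**
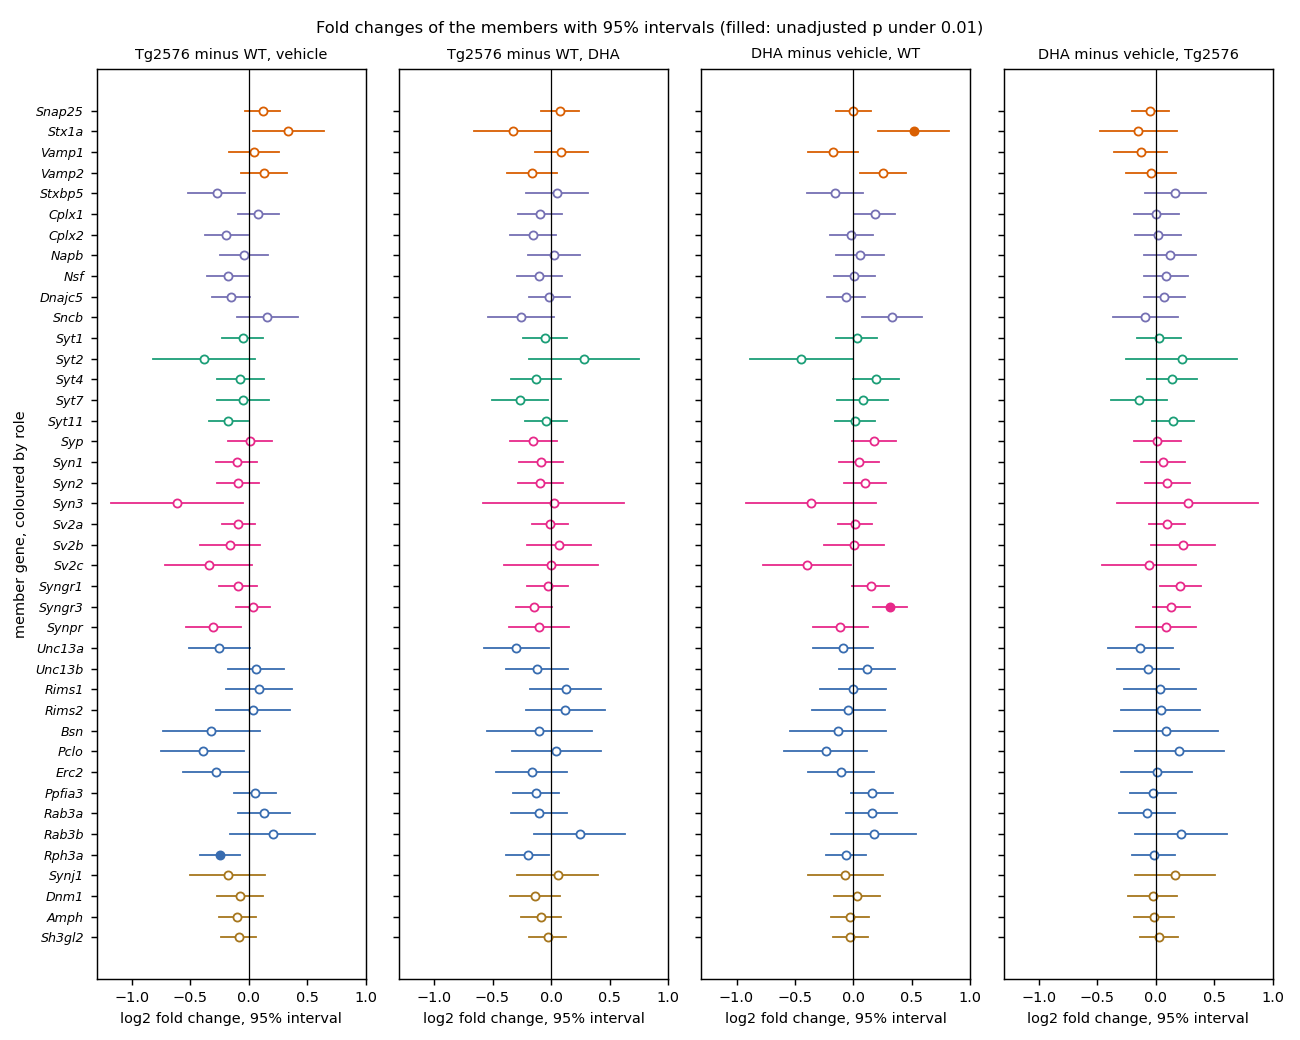
Log2 fold change of each member (x axis) with its 95% interval from the edgeR fit, in 4 comparisons. Filled points have an unadjusted p under 0.01. They are Rph3a in the genotype comparison under vehicle, and Stx1a and Syngr3 for DHA in WT mice.

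In the SNARE core, Stx1a stood apart. It encodes syntaxin 1A, the SNARE protein of the presynaptic plasma membrane. Stx1a was measured at 105, 108, 115 and 108 CPM in the WT vehicle mice and at 144, 160, 155 and 164 CPM in the WT DHA mice. The WT DHA values were all above the WT vehicle values, with a gap wider than the range of either group. The group means were 109 ± 4.44 and 156 ± 8.82 CPM (SD, n = 4 each), a rise of 43% (log2 fold change 0.52 ± 0.14 SE, 95% interval 0.21 to 0.82, edgeR p = 0.0023, Benjamini-Hochberg adjusted p = 0.54, exact permutation p = 0.0286). With 4 against 4 mice the exact permutation test allows no p below 0.0286. In Tg2576 mice Stx1a was at 107, 122, 131 and 191 CPM under vehicle and at 150.4, 119 and 103 CPM under DHA. Here the groups overlapped and the spread was wide, with means of 138 ± 36.9 CPM (n = 4) and 124 ± 24 CPM (n = 3) and a log2 fold change of -0.15 (95% interval -0.48 to 0.18, edgeR adjusted p = 0.999). The difference between the DHA effects was -0.67 ± 0.21 SE on the log2 scale (95% interval -1.11 to -0.22), which passed the call threshold with an edgeR adjusted p = 0.85. Without Tg2576 vehicle mouse 4, the highest of all 15, the difference was -0.47 (edgeR adjusted p = 0.99), and without Tg2576 DHA mouse 1 it was -0.83 (edgeR adjusted p = 0.36), both still called. The call of this difference was lost without WT vehicle mouse 1, 2 or 4, WT DHA mouse 2 or 4, or Tg2576 DHA mouse 2 or 3, each left out alone, and with an offset for G and C content (-0.52, edgeR adjusted p = 0.96). A fit with a block for the replicate number, with or without that offset, also lost the call.

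The other SNARE core genes moved less. Vamp2, the abundant vesicle SNARE, was higher by 19% under DHA in WT mice without overlap between the groups (log2 fold change 0.25 ± 0.093 SE, edgeR p = 0.015, adjusted p = 0.75, exact permutation p = 0.0286), and its log2 fold change in Tg2576 mice was -0.043 (95% interval -0.26 to 0.17). Vamp1 measured 192, 151, 153 and 161 CPM in WT vehicle mice, 158, 140.2, 158 and 127 CPM in WT DHA mice, 185, 166, 154 and 174 CPM in Tg2576 vehicle mice and 168, 160.1 and 137 CPM in Tg2576 DHA mice. All of these Vamp1 groups overlapped with each other. Snap25, the member with the highest CPM, differed by 8.74% between genotypes under vehicle (95% interval of the log2 fold change -0.029 to 0.27) and by -0.17% under DHA in WT mice (-0.15 to 0.15).

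Stx1a and Rph3a, a called member for each kind of comparison, are shown with the 250 bases before their transcription start (RefSeq, GRCm38.p6, written 5′ to 3′ on the gene's own strand). Stx1a lies on chromosome 5 from 135023482 to 135051100 on the plus strand, and its window is chr5:135023232-135023481. Rph3a lies on chromosome 5 from 120940499 to 121010092 on the minus strand, and its window, before the most upstream of its RefSeq starts, is chr5:121010093-121010342. Capitals mark matches on either strand to the cyclic AMP response element core TGACG and to the GC box GGGCGG.
Stx1a: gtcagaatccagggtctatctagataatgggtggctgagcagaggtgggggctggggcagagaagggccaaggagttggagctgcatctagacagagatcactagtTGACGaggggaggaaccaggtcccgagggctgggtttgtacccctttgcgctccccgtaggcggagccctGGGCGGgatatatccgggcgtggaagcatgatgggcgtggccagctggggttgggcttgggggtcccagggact
Rph3a: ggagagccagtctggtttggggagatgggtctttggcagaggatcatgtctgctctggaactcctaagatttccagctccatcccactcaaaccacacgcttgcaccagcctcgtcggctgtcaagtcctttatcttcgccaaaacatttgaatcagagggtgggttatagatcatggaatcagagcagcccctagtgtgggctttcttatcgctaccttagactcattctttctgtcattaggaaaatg
The Stx1a window held 1 match to each motif and was 62% G and C, and the Rph3a window held no match and was 48.8% G and C. Of the 33 members with a RefSeq window, 9 (27.3%) held TGACG, against 17.8% of all 27025 windows of this length. The GC box was in 22 of 33 (66.7%) against 33% of all windows, and the TATA motif TATAAA in 2 of 33 (6.06%) against 13%. The full response element TGACGTCA, of which TGACG is a part, was in the windows of Syn1 and Sh3gl2 (6.06% against 1.6% of all). The member windows were richer in G and C, with a median of 61.2% against 52%, and these shares are not adjusted for that. A match is a run of letters and not a shown binding site.

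Among the SNARE regulators none of 7 was called in any comparison. Stxbp5 encodes tomosyn, which occupies syntaxin and restrains fusion. It measured 125, 148, 119 and 135 CPM in WT vehicle mice, 127, 109, 98.8 and 102 CPM in Tg2576 vehicle mice, 122, 129, 108 and 114 CPM in WT DHA mice and 95.7, 138 and 133 CPM in Tg2576 DHA mice. Tg2576 vehicle mice were lower than WT vehicle mice apart from mouse 1, and the groups overlapped (means 109 ± 13 against 132 ± 12.7 CPM, n = 4 each, log2 fold change -0.27 ± 0.12 SE, edgeR p = 0.031, adjusted p = 0.4, exact permutation p = 0.0857). Cplx2 was the sole member whose genotype groups did not overlap under vehicle, an order seen in 2.98% of all genes tested, with 1485 to 1694 CPM in Tg2576 mice and 1711 to 2037 CPM in WT mice. Its log2 fold change was -0.19 ± 0.087 SE (edgeR p = 0.041, adjusted p = 0.44, exact permutation p = 0.0286). Its paralog Cplx1 gave 0.083 (95% interval -0.093 to 0.26) in the same comparison. Under DHA in WT mice, Cplx1 was higher by 13.3% without overlap (edgeR p = 0.046, adjusted p = 0.84, exact permutation p = 0.0286) and Cplx2 was at -1.3%. The Cplx1 groups were apart only by the narrow margin between 647 CPM (highest WT vehicle mouse) and 649 CPM (lowest WT DHA mouse).

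Nsf, the ATPase that takes spent SNARE complexes apart, had a log2 fold change of -0.18 between genotypes under vehicle (95% interval -0.35 to -0.0021, edgeR p = 0.048, adjusted p = 0.46, exact permutation p = 0.0857). Napb, its adaptor, gave -0.041 and the vesicle chaperone Dnajc5 gave -0.15, and neither passed the test. Sncb, which encodes beta-synuclein, was higher by 25.6% under DHA in WT mice (log2 fold change 0.33 ± 0.12 SE, edgeR p = 0.016, adjusted p = 0.75, exact permutation p = 0.0571) and differed by -6.08% in Tg2576 mice. The interaction for Sncb was -0.42 (95% interval -0.8 to -0.037, edgeR adjusted p = 0.85).

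None of the 5 synaptotagmins was called either. Syt11, a synaptotagmin that does not bind calcium, measured 886, 917, 789 and 850.3 CPM in WT vehicle mice and 779, 815, 804 and 652 CPM in Tg2576 vehicle mice. The groups overlapped, and mouse 4 was the lowest of the Tg2576 vehicle group (log2 fold change -0.17 ± 0.08 SE, edgeR p = 0.043, adjusted p = 0.44, exact permutation p = 0.0857). Under DHA Syt11 was at 849.7, 888, 840.2 and 898 CPM in WT mice and at 852, 828 and 847 CPM in Tg2576 mice. The Tg2576 DHA values lay above all 4 Tg2576 vehicle values, the only member of which that was true, an order seen in 1.69% of all genes tested. The log2 fold change was 0.14 (95% interval -0.038 to 0.32, edgeR p = 0.11, adjusted p = 0.999), and the exact permutation test gave p = 0.0571, the smallest that 4 against 3 mice allow.

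Syt1 was nearly level across the 4 groups, with log2 fold changes of -0.051 and -0.052 between the genotypes under vehicle and under DHA, and of 0.029 and 0.028 for DHA in WT and in Tg2576 mice. Syt7, the sensor of slow release, was at -0.27 for genotype under DHA (95% interval -0.51 to -0.028, edgeR p = 0.03, adjusted p = 0.69, exact permutation p = 0.0571), and the Tg2576 DHA mice lay below all WT DHA mice. Amph and the active zone scaffold Ppfia3 showed the same separation, so that it held for 3 of 41 members, against 4.66% of all genes tested. Syt2 had a log2 fold change of -0.45 under DHA in WT mice (edgeR p = 0.047, adjusted p = 0.84, exact permutation p = 0.143) and 0.22 in Tg2576 mice. The WT vehicle group of Syt2 held 1 mouse at 88 CPM and the others at 49.2 to 51.5 CPM.

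Among the vesicle membrane genes Syngr3 gave the lowest p of any member in any comparison. It encodes synaptogyrin-3, a tetraspan vesicle protein that binds the dopamine transporter, and lies on chromosome 17 from 24685092 to 24689955. Syngr3 was at 160.4, 171, 164 and 175 CPM in WT vehicle mice and at 203, 209, 205 and 216 CPM in WT DHA mice. The WT DHA mice were all above the WT vehicle mice, with means of 208 ± 5.92 against 168 ± 6.38 CPM (SD, n = 4 each), a rise of 24.3% (log2 fold change 0.31 ± 0.069 SE, 95% interval 0.17 to 0.46, edgeR p = 0.00025, adjusted p = 0.36, exact permutation p = 0.0286). In Tg2576 mice Syngr3 was at 164, 172, 172 and 179 CPM under vehicle and at 204, 182 and 178 CPM under DHA. These groups overlapped by the narrow margin between 178 and 179 CPM, and the log2 fold change was 0.13 (95% interval -0.024 to 0.29, edgeR p = 0.092, adjusted p = 0.999, exact permutation p = 0.114). The DHA effects in the genotypes differed by -0.18 on the log2 scale, with an interval from -0.4 to 0.03 that includes 0 (edgeR adjusted p = 0.85), so a difference between the genotypes was not shown for Syngr3.

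**Figure D4:**
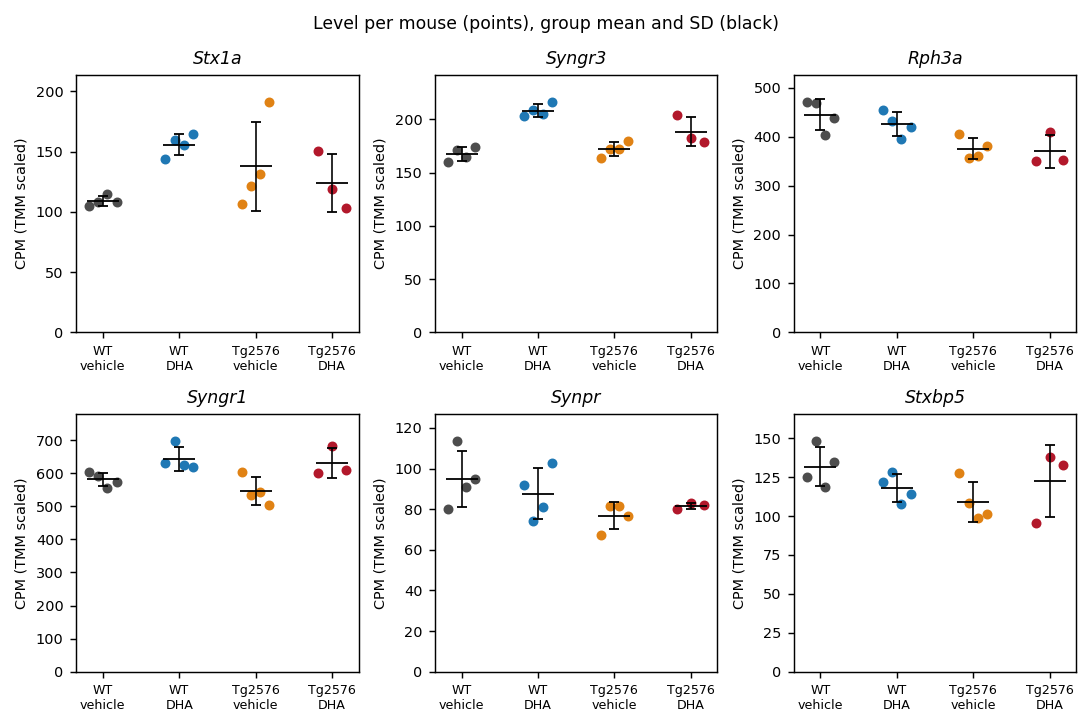
Level per mouse in CPM after TMM scaling (y axis, from 0) of 6 members in the 4 groups. Points are mice, and the black lines give the group mean and SD. Stx1a and Syngr3 show WT DHA mice above all WT vehicle mice, and Rph3a shows Tg2576 mice mostly below WT mice under both treatments.

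The paralog Syngr1 gave the lowest p of all members for DHA in Tg2576 mice. It measured 604, 533, 543 and 503 CPM in Tg2576 vehicle mice and 599.8, 683 and 609 CPM in Tg2576 DHA mice. A single vehicle mouse, mouse 1, lay within the DHA range (means 546 ± 42.2 CPM, n = 4, and 631 ± 45.4 CPM, n = 3, log2 fold change 0.21 ± 0.083 SE, edgeR p = 0.022, adjusted p = 0.999, exact permutation p = 0.11). In WT mice Syngr1 was at 603, 591, 556 and 573 CPM under vehicle and at 631, 696, 624 and 620.01 CPM under DHA. The WT groups did not overlap (log2 fold change 0.15 ± 0.077 SE, edgeR p = 0.075, adjusted p = 0.86, exact permutation p = 0.0286), and the interaction was 0.063 (95% interval -0.18 to 0.3). Syp, the vesicle marker synaptophysin, was likewise without overlap in WT mice and higher by 13.2% under DHA (95% interval of the log2 fold change -0.0094 to 0.37). With Stx1a, Vamp2, Cplx1, Syngr1 and Syngr3 this made 6 of 41 members whose WT DHA mice all lay above the WT vehicle mice and none with the opposite order, against 2.78% of all genes tested with that order. Cell markers moved in the same comparison. Of the 8 dentate and mossy fibre markers 2 were called lower, a direction called in 117 of all 19536 genes tested. Their sums were 477 to 572 CPM in WT vehicle mice and 397 to 499.8 CPM in WT DHA mice. Of 8 microglial markers 1 was called lower, and of 8 CA1 and CA3 pyramidal markers 1 was called higher. The 8 oligodendrocyte markers were all below 0 with none called (median log2 fold change -0.2, sums of 7326 to 7918 CPM under vehicle and 5695 to 8161 CPM under DHA). Of 15 markers of neurons in general 12 were above 0 and 1 was called higher, against 0.783% of all genes tested. The sums of these 15 were 9038 to 9838 CPM under vehicle and 9304 to 10275 CPM under DHA. Their part in the members' levels was not tested.

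Synpr encodes synaptoporin, a synaptophysin relative concentrated in mossy fibre terminals. It measured 80.1, 113, 90.7 and 94.7 CPM in WT vehicle mice, 67.4, 81.6, 81.6 and 76.4 CPM in Tg2576 vehicle mice, 92, 74.2, 81.1 and 103 CPM in WT DHA mice and 79.9, 83 and 82.1 CPM in Tg2576 DHA mice. WT vehicle mouse 1 was within the range of the Tg2576 vehicle mice and the other 3 were above it (log2 fold change -0.3 ± 0.11 SE, edgeR p = 0.015, adjusted p = 0.35, exact permutation p = 0.0857). Beside this, 3 of 8 markers of dentate granule cells and their mossy fibres were called lower between genotypes under vehicle, against 1.93% of all genes tested, and the summed level of the 8 ranged from 477 to 572 CPM in WT vehicle mice and from 392 to 446 CPM in Tg2576 vehicle mice, without overlap. Of 8 markers of parvalbumin interneurons 2 were called lower by the same rule, with sums from 879 to 995 CPM in WT vehicle mice and from 732 to 847 CPM in Tg2576 vehicle mice. The part of these cells in the levels of Synpr or any other member was not tested. Sums of 15 markers of neurons in general were 9038 to 9838 CPM in WT vehicle mice and 9032 to 10271 CPM in Tg2576 vehicle mice, and they overlapped. Of these 15 markers 9 were below 0 and 1 was called lower. Of 8 CA1 and CA3 pyramidal markers 1 was also called lower. In the other direction, 1 of 8 astrocyte and 1 of 8 endothelial markers were called higher, against 226 of all 19536 genes tested.

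The remaining vesicle membrane genes were not called in any comparison. Syn1 and Syn2, the abundant synapsins, had log2 fold changes of -0.1 and -0.087 between genotypes under vehicle and of 0.047 and 0.1 for DHA in WT mice. Syn3 was at -0.61 between genotypes under vehicle (edgeR p = 0.035, adjusted p = 0.42, exact permutation p = 0.114) on a mean of 8.83 CPM. Sv2c, the minor form of the SV2 family in the hippocampus, was at -0.4 for DHA in WT mice (95% interval -0.77 to -0.024, edgeR p = 0.038, adjusted p = 0.84, exact permutation p = 0.0571), whereas Sv2b was at 0.0031 (-0.25 to 0.26).

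In the active zone group, Rph3a was the 1 member called between genotypes under vehicle. It encodes rabphilin-3A, an effector that binds Rab3 on the vesicle. Rph3a measured 471, 468, 403 and 439 CPM in WT vehicle mice and 405, 357, 361 and 381 CPM in Tg2576 vehicle mice. The Tg2576 vehicle mice were lower apart from mouse 1, which lay just above WT vehicle mouse 3, so the groups overlapped. The means were 445 ± 31.6 and 376 ± 22.1 CPM (SD, n = 4 each), a fall of 15.6% in the Tg2576 mice (log2 fold change -0.24 ± 0.081 SE, 95% interval -0.41 to -0.074, edgeR p = 0.0076, adjusted p = 0.3, exact permutation p = 0.0571). Under DHA Rph3a was at 454, 432, 395 and 420 CPM in WT mice and at 350.5, 409.6 and 352 CPM in Tg2576 mice. Again the Tg2576 mice were lower with 1 mouse inside the WT range (log2 fold change -0.2 ± 0.087 SE, edgeR p = 0.036, adjusted p = 0.7, exact permutation p = 0.114), and DHA moved Rph3a by -0.066 in WT and by -0.02 in Tg2576 mice on the log2 scale, with intervals that include 0. The call under vehicle was lost without WT vehicle mouse 1, 2 or 4, WT DHA mouse 1, or Tg2576 vehicle mouse 2, 3 or 4, each left out alone.

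Rab3b, the minor Rab3 form, had the lowest p of its group for DHA in Tg2576 mice and did not pass the test. It measured 31.1, 26.4, 54.7 and 43.5 CPM in WT vehicle mice, 37.9, 46.2, 47 and 44.7 CPM in WT DHA mice, 39.6, 44.3, 46.8 and 48.9 CPM in Tg2576 vehicle mice and 51.1, 60.3 and 44.8 CPM in Tg2576 DHA mice. The WT vehicle mice alone spanned nearly the whole range of Rab3b, and the groups overlapped. Its abundant relative Rab3a differed by 9.46% between genotypes under vehicle (95% interval of the log2 fold change -0.09 to 0.35).

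Several scaffolds and a priming factor had negative log2 fold changes between genotypes under vehicle, and none of these passed the threshold. Pclo was at -0.39 (edgeR adjusted p = 0.41), Bsn at -0.32 (adjusted p = 0.59), Erc2 at -0.28 (adjusted p = 0.47) and the priming factor Unc13a at -0.25 (adjusted p = 0.48), all on the log2 scale. Rims1, Rims2 and Unc13b gave 0.086, 0.037 and 0.064, so the active zone genes did not all differ in 1 direction. Under DHA, Unc13a was at -0.3 between genotypes (95% interval -0.58 to -0.018, edgeR p = 0.038, adjusted p = 0.7, exact permutation p = 0.114).

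None of the 4 endocytic genes was called, and for DHA in WT mice their log2 fold changes stayed between -0.071 and 0.033. Amph, which encodes amphiphysin, measured 247, 275, 262 and 269.97 CPM in WT vehicle mice, 280.01, 248, 251 and 252 CPM in WT DHA mice, 267, 225, 262 and 231 CPM in Tg2576 vehicle mice and 240.6, 242 and 246 CPM in Tg2576 DHA mice. The vehicle groups overlapped, and the log2 fold change between them was -0.097 (95% interval -0.26 to 0.063, edgeR p = 0.22, adjusted p = 0.68, exact permutation p = 0.229). Synj1, the phosphoinositide phosphatase synaptojanin 1, measured 478, 504, 388 and 430.4 CPM in WT vehicle mice, 463, 473, 405 and 372 CPM in WT DHA mice, 479.5, 408, 389.8 and 315 CPM in Tg2576 vehicle mice and 313, 531 and 493 CPM in Tg2576 DHA mice. The 3 Tg2576 DHA mice included both the lowest and the highest Synj1 value of all 15. Dnm1 and Sh3gl2 had log2 fold changes between -0.14 and 0.033 in the 4 comparisons between groups.

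In 2 of the 4 comparisons between groups, longer members had lower fold changes. Across the 41 members, Pearson's r of the log2 fold change with log exon length was -0.57 for genotype under vehicle and -0.67 for DHA in WT mice, and 0.28 and 0.16 for genotype under DHA and DHA in Tg2576 mice. Over all genes tested the same values were -0.16, -0.11, 0.015 and 0.079. With the G and C content of the exons, r over the members was 0.26 for genotype under vehicle, 0.37 for DHA in WT mice, -0.48 for genotype under DHA and -0.37 for DHA in Tg2576 mice, so in the latter pair the relation with G and C was the larger. Over all genes tested r with G and C was 0.028, 0.15, -0.2 and -0.098 in the same order. These are descriptions over genes of the same libraries, which are not independent replicates. With bounds chosen after the values were seen, the 9 members shorter than 4000 bases (such as Syngr3, Sncb, Cplx1, Rab3a and Stx1a) were above 0 for DHA in WT mice in 9 of 9, with a median log2 fold change of 0.19. The 11 members longer than 9000 bases (such as Pclo, Bsn, Stxbp5 and Syn3) were below 0 in 10 of 11, with a median of -0.13. Between genotypes under vehicle the medians of short and long members were 0.13 and -0.28. Between genotypes under DHA the short members went the other way, with 8 of 9 below 0 and a median of -0.13, and the long members had a median of -0.0008.

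**Figure D5:**
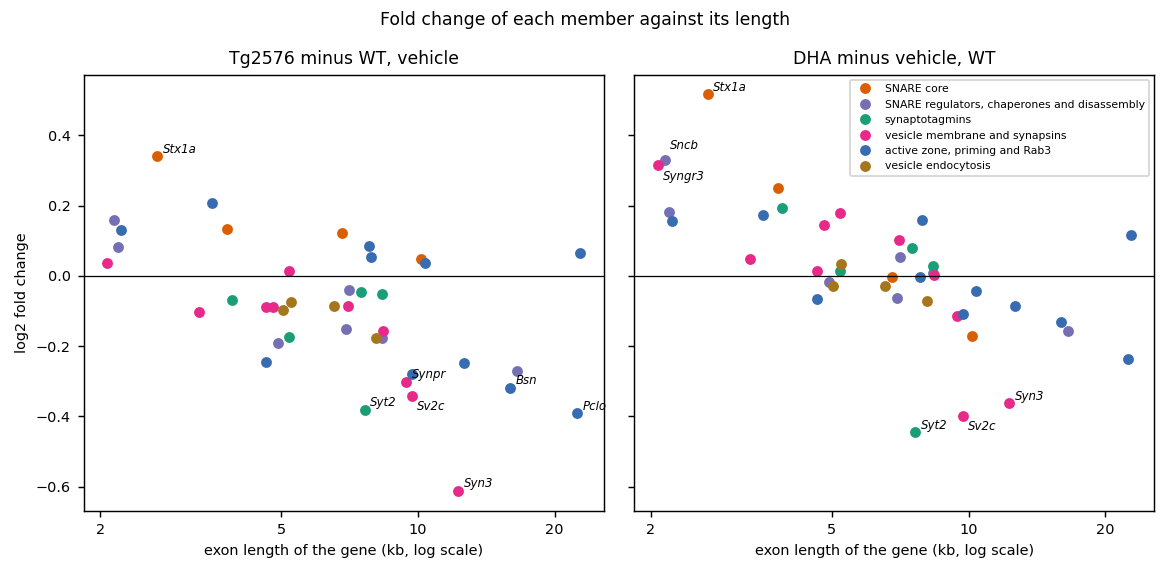
Log2 fold change of each member (y axis) against its exon length in kilobases (x axis, log scale), for genotype under vehicle and for DHA in WT mice. Members with a difference over 0.28 on the log2 scale are named. Short members lie higher than long ones in both panels, with Pearson's r of -0.57 and -0.67 over 41 members.

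Library by library the same contrast was visible. The mean log2 level of the long members minus that of the short members, relative to the mean of all mice, was 0.45, 0.51, -0.01 and 0.11 in the WT vehicle mice and 0.038, -0.047, -0.21 and -0.32 in the WT DHA mice. Among Tg2576 mice it was 0.23, 0.015, -0.24 and -0.33 under vehicle and -0.44, 0.089 and 0.15 under DHA. An index of long against short genes over the whole library ranged from -0.42 in Tg2576 DHA mouse 1 to 0.38 in Tg2576 DHA mouse 2. With an offset for gene length in the fit, r over the members was -0.19 for genotype under vehicle and -0.48 for DHA in WT mice, and the medians of the long members were -0.14 and -0.034. The medians of the short members with that offset were 0.065 and 0.19 in the same order, so the latter hardly changed. Stx1a and Syngr3 kept their calls for DHA in WT mice with that offset (log2 fold changes 0.49 and 0.28, edgeR adjusted p = 0.41 and 0.25), as did Rph3a between genotypes (-0.22, adjusted p = 0.3). An offset for G and C content lowered the first 2 further, to 0.43 and 0.25, both still called (edgeR adjusted p = 0.61 and 0.55). With it, r over the members for DHA in WT mice was 0.075 with G and C content and -0.57 with length. Whether RNA integrity or library preparation had a part in these length relations was not tested.

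A list of 87 other presynaptic genes was set beside the members. Between genotypes under vehicle 6 of the 87 were called, 5 lower and 1 higher, against 3.09% of all genes tested, and the median log2 fold change was -0.067, with 57 of 87 below 0. The 5 lower genes were Erc1 at -0.63 (edgeR adjusted p = 0.16), the Mint adaptor Apba2 at -0.22 (edgeR adjusted p = 0.24), the RIM binding protein Rimbp2 at -0.34 (edgeR adjusted p = 0.29), the liprin Ppfia2 at -0.32 (edgeR adjusted p = 0.3) and the calcium sensor Doc2b at -0.31 (edgeR adjusted p = 0.3). In each of the 5 the Tg2576 vehicle mice were all below the WT vehicle mice (exact permutation p = 0.0286). The 5 were picked by their p in this comparison, so that order is not separate support. Over the whole list 7 of 87 had that order, against 2.98% of all genes tested. The opposite order was seen in 1 of 87, against 426 of 19536. The higher gene, named after its value was seen, was the synaptotagmin Syt6 at 0.54 (edgeR adjusted p = 0.31). Erc1 and Ppfia2 are paralogs of the members Erc2 (-0.28) and Ppfia3 (0.053). Genotype under DHA called 3 of the 87, against 1.75% of all genes. All 3 were lower, a direction called in 134 of 19536 genes. DHA in WT mice called 3, against 1.38%, and all were higher, a direction called in 0.783% of all genes. Neither DHA in Tg2576 mice nor the interaction called any in edgeR, where 2 and 7 had an unadjusted p under 0.05. Among all 19536 genes 618 and 1001 did so. Between genotypes under DHA, 4 of 8 microglial markers were called higher, against 1.06% of all genes tested, with sums of 315 to 398 CPM in WT mice and 403 to 588 CPM in Tg2576 mice. There 1 of 8 astrocyte markers was called higher, and 1 of 8 CA1 and CA3 pyramidal and 1 of 8 thalamus markers lower. All 7 subiculum and 8 choroid plexus markers were above 0, none called. DHA in Tg2576 mice called 1 of 7 subiculum markers higher, against 31 of 19536 genes. It called 1 of 8 oligodendrocyte and 1 of 8 thalamus markers lower, against 38 of 19536. The part of these cells in the members' levels was not tested.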

How the data were processed

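Hippocampal RNA of 15 mice was sequenced. The authors aligned reads with STAR 2.6.1c to GRCm38 and counted them per gene with featureCounts 1.6.0, and they deposited these raw counts of 55401 genes per mouse, without strand or multimapping options in the command that the file headers give. The study's methods name the TruSeq Stranded mRNA kit, whereas the labels name a SMARTER kit. Reads of a member and of an overlapping antisense gene could not be told apart. Symbols were found for 55141 genes in GENCODE M21, while the files use M25.

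Counts were analysed in R 4.3.3 with edgeR 4.0.16. The filterByExpr function (minimum count 10) kept 19536 genes. After TMM scaling, a robust quasi-likelihood fit with 1 coefficient per group gave 5 two-sided comparisons with Benjamini-Hochberg adjustment over all genes tested. The call threshold followed the study's methods. The common biological coefficient of variation was 20.1%. Intervals are 95% intervals of that fit. The exact permutation test used log2 CPM (prior count 2). The labels do not state that mice of a group came from separate cages or litters, so p values measure the spread between these mice.

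Members and gene lists were chosen with earlier results of these data known. Values per mouse are given for members called in any comparison and, in each role, for the member with the lowest p for genotype under vehicle and for DHA in Tg2576 mice. Other members are given by fold changes, and those singled out for groups without overlap were named after their values were seen. Alternatives were DESeq2 1.42.0, limma-voom (limma 3.58.1), no TMM factors, other filters, dispersions without robust estimation, a block for the replicate number, GC and length offsets (lowess span 0.3), 1 surrogate variable (sva 3.50.0), fits of only the compared groups and each mouse left out. Protein sequences were not used here.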

Additional observations from a re-analysis of the deposited data

Results flagged for a closer look

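In groups of 4 mice, 9 of the 123 combinations of member and group held a mouse whose gap to the next mouse passed Dixon's 95% limit, and chance alone gives about 1 in 20. Mice above the rest of their group were WT DHA mouse 1 for Snap25 (2071 CPM, the others 1848 to 1865 CPM) and for Amph (280.01 CPM, the others 248 to 252 CPM), WT DHA mouse 2 for Sv2a (617 CPM, the others 562 to 569.9 CPM) and for Syngr1 (696 CPM, the others 620.01 to 631 CPM), WT vehicle mouse 1 for Syt2 (88 CPM, the others 49.2 to 51.5 CPM), WT vehicle mouse 2 for Ppfia3 (287 CPM, the others 242 to 248 CPM) and Tg2576 vehicle mouse 4 for Unc13a (588 CPM, the others 428 to 453 CPM). Mice below the rest were Tg2576 vehicle mouse 2 for Cplx2 (1485 CPM, the others 1663 to 1694 CPM) and Tg2576 vehicle mouse 4 for Sv2b (272 CPM, the others 359.7 to 377 CPM). None of these single mice was left out of the values in the report.

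The interaction of genotype and DHA for Stx1a passed the call threshold, at -0.67 on the log2 scale (edgeR, Benjamini-Hochberg adjusted p = 0.85). It did not pass the adjustment over all genes tested, and the call was lost in 3 of 12 other settings and without any 1 of 7 mice. Stx1a was higher in 4 of 4 WT DHA mice than in any WT vehicle mouse, and the Tg2576 groups overlapped. Its log2 fold change between genotypes was 0.34 under vehicle and -0.33 under DHA, neither called.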

How the results depend on the processing

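No called member changed direction in any setting. In WT mice the DHA calls of Stx1a (log2 fold change 0.4 to 0.56) and Syngr3 (0.25 to 0.33) remained in all 13 other settings and without each of the 15 mice. Their adjusted p ranged from 0.041 to 0.999 and from 0.002 to 0.995, and was under 0.05 for Stx1a with only the compared groups and for Syngr3 with DESeq2. Rph3a between genotypes under vehicle was called in 10 of 13 settings and Stx1a in the interaction in 9 of 12 (lost with the replicate block at -0.58, the GC offset at -0.52 and both at -0.46). The count of called members between genotypes under vehicle was 0 without TMM factors, 0 with only the compared groups and 2 with 1 surrogate variable (Rph3a and Synpr), and 0 to 5 without single mice. Between genotypes under DHA it was 1 with the GC offset (Syt4) and 1 with a surrogate variable (Rph3a), and 0 to 1 without single mice. For DHA in WT mice it was 5 with only the compared groups (adding Vamp2, Sncb and Sv2c), 3 with DESeq2 (Vamp2), without a low-count filter (Sncb), with the GC offset alone or with the block (Syt4) and with a surrogate variable (Syngr1), and 2 to 3 without single mice. For DHA in Tg2576 mice it was 1 with DESeq2 (Syngr1), and 0 to 1 without single mice. The members' median for DHA in Tg2576 mice was 0.013 to 0.11 without single mice, the highest without Tg2576 DHA mouse 1. Over the other settings that median ran from -0.0028 (length offset) to 0.056. For DHA in WT mice the median ran from -0.0079 (GC offset) to 0.062 (1 surrogate variable), and from -0.025 to 0.034 without single mice. For the interaction the count was 0 with the replicate block, 0 with the GC offset and 0 with both, and 0 to 3 without single mice, while the members' median was -0.026 with the replicate block and length offset and -0.041 with a surrogate variable. Counts of the 87 other presynaptic genes ranged over the other settings from 4 to 10 for genotype under vehicle, 0 to 5 for genotype under DHA and 1 to 4 for DHA in WT mice. Without single mice they ranged from 2 (without WT vehicle mouse 2) to 10, 0 to 3 and 1 to 3, and reached 2 for DHA in Tg2576 mice and 3 for the interaction. All these counts are given without the share of all genes called in the same setting, so no change in them is read as particular to these genes. The causes were not tested. The labels do not state that the numbers of the mice pair them. Deviations of same-numbered mice correlated with a median r of 0.012 (over 0.1 in 4 of 21 pairs). Those of other pairs had a median of 0.003 (over 0.1 in 12 of 63). Such correlations cannot exclude a pairing. The replicate block alone changed no count of members apart from that of the interaction.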
